A study of Mus musculus with 18 samples.

Results

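The spleen transcriptome was compared between A10-FMT and Con-FMT, the pair of groups that differed only in the donors of a microbiota transplant. The comparison holds 6 of the 18 libraries of the series, 3 A10-FMT and 3 Con-FMT, chosen by the treatment in the sample labels. All 6 recipients were ICR (CD1) males, an outbred stock, and were 10 weeks old when the spleen was frozen. All had received 1 dose of STZ (streptozotocin), a sugar-linked toxin that enters insulin-producing beta cells and kills them, as a model of type 1 diabetes. They were then dosed by mouth, daily over a period of weeks, with microbiota from the small intestine of other ICR males. The A10-FMT donors had been gavaged with AOS (alginate oligosaccharide) at 10 mg/kg, and the Con-FMT donors with water. The luminal content of each donor group was pooled before transfer, so that all recipients of a group shared 1 inoculum, and an effect of the AOS cannot be told apart from any other difference between the 2 pools. Con-FMT is the control for the transplant, the STZ and the handling. The question addressed is what the AOS-dosed donors add to a transplant.

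AOS is a short chain of sugar acids cut from alginate, the cell wall polymer of brown algae, and is not digested by mammalian enzymes. The spleen filters blood. Its red pulp holds macrophages that take up aged red cells and recycle their iron, and in mice it also makes red cells, while its white pulp holds T cell zones, drawn together by the chemokines CCL19 and CCL21 acting on the receptor CCR7, and B cell follicles. Microbial products and metabolites reach it through the blood, where they can act on pattern receptors such as the Toll-like receptors. In whole spleen, fewer cells of a type and less RNA per cell cannot be told apart.

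Each value is an RPKM, the reads of a gene per kilobase of its length, divided by the library's mapped reads. A gene was tested if it reached an RPKM of 1 in at least 3 of the 6 libraries, which kept 12314 genes. Differences are log2 fold changes of RPKM + 1, A10-FMT minus Con-FMT, which understates the change of low genes. They are given as deposited and, for 12306 genes, after each library was centred on its median gene with the globin genes left out. Depth is unknown because no read counts were used here.

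Of the 12314 genes, 1 passed an adjusted p of 0.05 (limma, Benjamini-Hochberg over all genes), and it was lower in A10-FMT. That is 0.00812% of the genes as deposited and 0.00813% after centring, where it was the same gene, and 0% were called higher. That gene was Gdpd3. At an unadjusted p under 0.05, 985 genes (8%) were lower and 323 (2.62%) higher as deposited, and 377 (3.06%) lower and 571 (4.64%) higher after centring. Leaving out A10-FMT replicate 2 gave 3 called genes as deposited, and leaving out A10-FMT replicate 3 gave 2 in both versions. The median log2 fold change of all genes was -0.17 as deposited and 0.0016 after centring, so that 70.9% of genes were lower as deposited and 49.8% after centring.

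Before any gene is described, 1 library has to be set apart. A10-FMT replicate 3 had 2102 genes more than 1 log2 unit from the Con-FMT mean, against 146 in A10-FMT replicate 1 and 114 in replicate 2. Across genes, Pearson's r between libraries was 0.937 to 0.971 within A10-FMT, against 0.988 to 0.992 within Con-FMT. With the Con-FMT libraries, r was 0.976 to 0.980 for A10-FMT replicate 1, 0.982 to 0.986 for replicate 2 and 0.929 to 0.932 for replicate 3. A10-FMT replicates 1 and 2 were therefore closer to each Con-FMT library than to each other (0.971). The median standard deviation of a gene was 0.251 log2 units in A10-FMT and 0.101 in Con-FMT, a ratio of 2.49. The A10-FMT spleens therefore varied more among themselves than the Con-FMT spleens did.

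Globin transcripts took 39.5%, 28.3% and 42.7% of the summed RPKM in A10-FMT (36.8% ± 7.57, SD, n = 3) and 32.0%, 30.8% and 21.8% in Con-FMT (28.2% ± 5.56, n = 3). The groups overlapped, and the difference of 8.62 percentage points had an exact permutation p of 0.3 (two-sided). The median log2 value of a library was 3.62, 3.72 and 3.43 in A10-FMT and 3.73, 3.75 and 3.795 in Con-FMT. Here the groups did not overlap, with a difference of -0.17 and an exact permutation p of 0.1, the smallest that 3 against 3 allow. Because RPKM is scaled to the mapped reads of a library, more globin RNA leaves lower values for other genes, which is the reason for the centred version. With the globin genes left out and RPKM rescaled to a common sum, the median log2 fold change of all genes was -0.13. Centring, which brought it to 0.0016, therefore removed more than this rescaling did. How far globin RNA accounts for the lower A10-FMT medians was not tested.

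**Figure D1:**
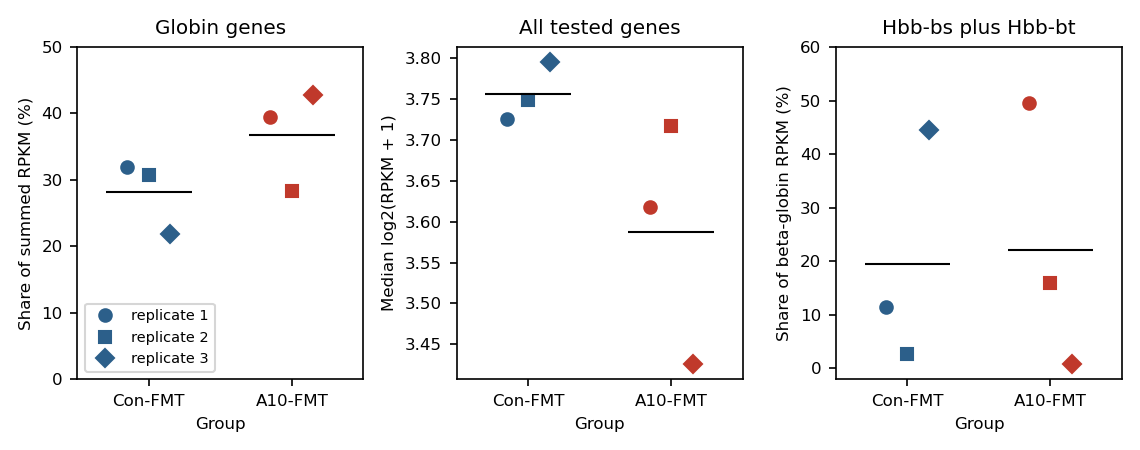
The share of globin genes in the summed RPKM (%, left), the median log2(RPKM + 1) of the tested genes (middle) and the share of Hbb-bs and Hbb-bt in the beta-globin RPKM (%, right) in the 3 Con-FMT and 3 A10-FMT libraries. Points are libraries and lines are group means; all A10-FMT medians lie under the Con-FMT medians, while both shares overlap between the groups.

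Gdpd3 encodes a membrane enzyme of the glycerophosphodiester phosphodiesterase family, with lysophospholipase D activity that releases lysophosphatidic acid. The gene (ENSMUSG00000030703.8) lies at chr7:126766334-126775649 on the plus strand of GRCm38. It was at 0.36, 0.37 and 0.27 RPKM in A10-FMT and at 27.3, 36.6 and 29.2 RPKM in Con-FMT. Every Con-FMT library was above 27 RPKM and every A10-FMT library was under 1, where a value rests on few reads. The means were 0.333 ± 0.0551 and 31.0 ± 4.89 RPKM (SD, n = 3 each). Gdpd3 was lower in A10-FMT by a log2 fold change of -4.58 (95% interval -4.91 to -4.24, limma adjusted p = 0.000168) and by -4.41 after centring (adjusted p = 0.000161).

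The other groups of the series show how far this gene ranges in the spleen of these mice. It was at 0.43, 0.66 and 0.38 RPKM in Con, the saline controls without STZ, as low as in A10-FMT. In A10 animals, given AOS without STZ, it was at 11.1, 3.44 and 19.7 RPKM. In STZ animals it was at 26.9, 76.0 and 3.08 RPKM, and in STZ-A10 animals, given both, at 10.3, 25.0 and 54.0 RPKM. Gdpd3 was therefore under 1 RPKM in all libraries of A10-FMT and Con and above 3 RPKM in all libraries of the other 4 groups, with a wide spread within STZ and STZ-A10. When all 18 libraries were fitted together, which brings that spread into the error, the same difference had an adjusted p of 0.202. The other 15 alternatives that could give a value for Gdpd3 had an adjusted p between 5.99e-08 and 0.0119.

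**Figure D2:**
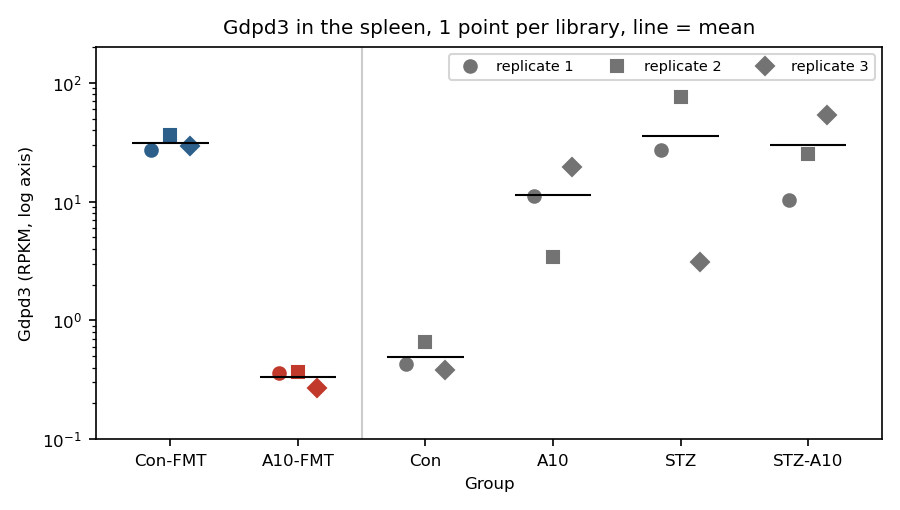
Gdpd3 RPKM (log axis) in the 18 spleen libraries by group, 1 point per library, with lines at the group means. The 3 Con-FMT libraries lie between 27.3 and 36.6 RPKM and the 3 A10-FMT libraries between 0.27 and 0.37 RPKM, the level of the Con libraries.

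No tested neighbour of Gdpd3 passed the adjusted threshold, among 12 tested of the 23 other annotated genes within 100 kb. Their log2 fold changes ran from -0.76 for Coro1a, an actin-binding protein of leukocytes, to 0.34 for Hirip3. Mapk3, the next gene on the chromosome and the gene of the ERK1 kinase, was at a mean of 71.7 RPKM in A10-FMT and 71.1 RPKM in Con-FMT. The antisense gene Gm9967, which overlaps Gdpd3, has no line in the table, and whether reads were counted by strand is not stated. Reads of the 2 genes therefore cannot be told apart.

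The stretch just upstream of Gdpd3 is printed because it borders the only gene called. It is the RefSeq sequence for chr7:126766164-126766333 of GRCm38.p6, plus strand, and ends where the annotated gene begins.
Gdpd3: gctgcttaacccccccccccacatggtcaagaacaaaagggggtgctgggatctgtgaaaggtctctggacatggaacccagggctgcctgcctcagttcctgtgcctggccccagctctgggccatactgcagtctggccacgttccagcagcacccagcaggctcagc
Nothing is in capitals because 3 common promoter motifs had no match on either strand of the 250 bases before the RefSeq start site. The GC box (GGGCGG) was held by 35.4% of the 27025 genes that have such a window. The TATA box, searched with the letters TATAAA, was held by 14.3% of them. The box named CCAAT after its letters was held by 37.5%.

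Apart from Gdpd3, the genes with the smallest unadjusted p in each direction are given as values, each with an adjusted p of 0.341 (limma) as deposited. All were chosen among genes with no overlap between A10-FMT and Con-FMT libraries, a condition that 652 genes (5.29%) met towards higher and 3001 (24.4%) towards lower values as deposited. After centring, 1484 (12.1%) met it in each direction. The smallest p among higher genes belonged to Tspo2, an erythroid protein that moves cholesterol during red cell maturation. It was at 42.1, 39.7 and 57.5 RPKM in A10-FMT and at 21.3, 21.3 and 23.4 RPKM in Con-FMT, which gave a log2 fold change of 1.03 (1.20 after centring). Its A10-FMT libraries also lay above those of the STZ group, at 22.4, 32.1 and 35.1 RPKM.

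Mrpl27, a protein of the large subunit of the mitochondrial ribosome, was at 28.7, 29.9 and 37.0 RPKM in A10-FMT and at 17.1, 19.0 and 19.5 RPKM in Con-FMT. Tspan8, a tetraspanin, was at 40.4, 34.6 and 42.2 RPKM against 26.3, 25.7 and 19.9 RPKM. Tmem184a, a membrane protein, was at 5.48, 5.73 and 6.31 RPKM against 3.75, 2.67 and 3.19 RPKM. The log2 fold changes of these 3 genes lay close together, at 0.74, 0.69 and 0.71. The predicted gene Gm40378 was at 11.5, 11.95 and 10.99 RPKM against 6.11, 8.26 and 5.48 RPKM. The A10-FMT levels of all 4 genes were met or nearly met in other groups. Mrpl27 was at 24.9 to 29.1 RPKM and Gm40378 at 13.8 to 19.5 RPKM in A10. Tmem184a was at 7.07, 9.63 and 5.0 RPKM in STZ. Tspan8 reached 46.3 RPKM in STZ and 40.9 RPKM in Con.

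The other 5 genes named towards higher values are made by hepatocytes. Ahsg (fetuin-A) was at 9.73, 7.52 and 32.7 RPKM in A10-FMT and 1.31, 2.2 and 0.2 RPKM in Con-FMT. Fgb, the beta chain of fibrinogen, was at 3.35, 4.48 and 12.5 RPKM against 0.47, 0.66 and 0.09 RPKM. Gc, the vitamin D binding protein, was at 6.10, 4.72 and 16.7 RPKM against 1.00, 1.72 and 0.08 RPKM. Each was highest in A10-FMT replicate 3. Cyp3a11, a drug-oxidizing cytochrome P450, and Mat1a, which makes S-adenosylmethionine in liver, had log2 fold changes of 2.45 and 2.01.

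Of the 30 genes on a liver list, 28 were tested and 25 were higher in A10-FMT by value, with a median log2 fold change of 1.84 (2.01 after centring, 1.44 without A10-FMT replicate 3). Most of these passed the filter on low values only through the group where they are high. Of the 28, 6 reached an RPKM of 1 in all 6 libraries, and 3 of these 6 were higher, with a median of 0.19. The summed RPKM of the list was 355, 365 and 709 in A10-FMT and 233, 272 and 185 in Con-FMT. Alb (serum albumin) was at 42.3, 32.6 and 175 RPKM against 8.80, 10.3 and 1.19 RPKM. Serpina1b and Trf (transferrin), the genes of the list with the highest mean beside Alb, did not follow it, with log2 fold changes of -0.09 and -0.04. In Con, 2 of the 3 libraries were also high, with Alb at 7.59, 104.6 and 97.95 RPKM, Ahsg at 0.96, 18.9 and 15.4 RPKM and Fgb at 0.51, 7.69 and 9.76 RPKM. Those 2 libraries lay above A10-FMT replicates 1 and 2 and under replicate 3 for all of these genes. The spleen lies next to other abdominal organs, and the part of liver RNA in the results was not tested.

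Among the genes lower in A10-FMT, the predicted gene Gm29779 was at 9.83, 15.8 and 12.3 RPKM against 30.6, 28.6 and 26.6 RPKM in Con-FMT, which gave a log2 fold change of -1.14. Reg3b, an antibacterial lectin of pancreas and gut, was at 0.00, 4.19 and 0.20 RPKM against 24.0, 10.0 and 34.6 RPKM. Ceacam2, an adhesion molecule, was at 2.27, 2.78 and 2.58 RPKM against 5.39, 3.99 and 6.32 RPKM. Reg3b belongs to the exocrine pancreas list described below, and in the groups without STZ it was at 1.48 RPKM or less in each library.

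A set of smaller differences had narrow spreads in both groups. Ace (angiotensin-converting enzyme), which marks patrolling monocytes in the spleen, was at 8.49, 7.03 and 8.71 RPKM in A10-FMT and 11.4, 12.4 and 11.9 RPKM in Con-FMT. Cd300a, an inhibitory receptor of myeloid cells, was at 8.35, 9.36 and 8.33 RPKM against 12.3, 11.8 and 12.8 RPKM. Daxx, a histone H3.3 chaperone, was at 12.4, 13.3 and 12.9 RPKM against 19.1, 17.2 and 17.3 RPKM. Their log2 fold changes were -0.51, -0.46 and -0.44, and A10-FMT replicate 3 was close to the other A10-FMT libraries for all of them. After centring they were -0.34 (95% interval -0.71 to 0.03), -0.29 (-0.53 to -0.05) and -0.27 (-0.56 to 0.01), so that the intervals of Ace and Daxx then held 0. Slc16a3, a lactate exporter, and Olfm1, a secreted glycoprotein, had log2 fold changes of -0.52 and -0.66.

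**Figure D3:**
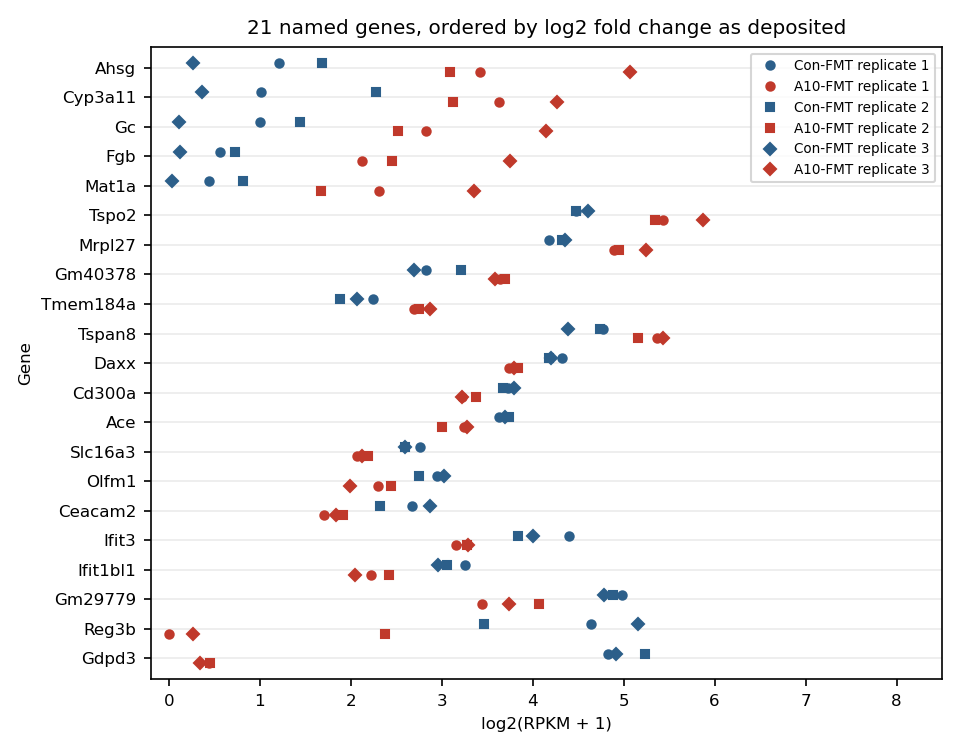
The 21 genes named by the rule, apart from the study proteins, as log2(RPKM + 1) in each Con-FMT (blue) and A10-FMT (red) library, with marker shapes for replicates. The groups do not overlap for any gene because the rule required it; Gdpd3, at the bottom, is the only gene past the adjusted threshold.

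Red cell genes lay above Con-FMT in A10-FMT as a block, though no member passed the adjusted threshold. All 33 tested genes of an erythroid list of 34 were higher, with a median log2 fold change of 0.72 as deposited and 0.89 after centring. For 19 of them the libraries did not overlap (21 after centring), and 0 were lower without overlap. Over all genes, 29.1% were higher, and 5.29% were higher without overlap (12.1% after centring). The direction held in each library, since the mean log2 value of the list was 7.52, 7.04 and 8.15 in A10-FMT and 6.94, 6.95 and 6.82 in Con-FMT. Without A10-FMT replicate 3 the median was 0.38 (0.46 after centring), so that its size depended on this library.

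Membrane and enzyme genes of the maturing red cell were alike in this. Slc4a1 (band 3, the anion exchanger of the red cell) was at 672, 446 and 1127 RPKM in A10-FMT and 415, 433 and 391 RPKM in Con-FMT. Car2 (carbonic anhydrase 2) was at 1855, 1330.2 and 3108 RPKM against 1163, 1171 and 1152 RPKM. Alas2, which starts heme synthesis in erythroid cells, was at 917, 674 and 1272 RPKM against 672, 682 and 442 RPKM. In all 3, A10-FMT replicate 2 was the lowest of its group and close to Con-FMT, overlapping it for Alas2. Gata1, the master transcription factor of the lineage, had a log2 fold change of 0.55, and Epor, the erythropoietin receptor, one of 0.36. Tspo2 had the highest in the list and Slc25a38, a mitochondrial glycine carrier, the lowest, at 0.31.

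The 8 tested globin genes were all higher on average, with a median log2 fold change of 0.38, but all overlapped between the groups. Hba-a1, the main alpha-globin, was at 209675, 136753 and 215329 RPKM in A10-FMT and 161084, 151052 and 96726 RPKM in Con-FMT. Hbb-b1 was at 54445, 58727 and 124931 RPKM against 68551, 72529 and 27334 RPKM. The beta-globin genes did not move as a unit, since Hbb-bs was at 54525, 11243 and 976 RPKM against 8862, 1914 and 21885 RPKM. Hbb-bs and Hbb-bt together made up 49.5%, 16% and 0.75% of beta-globin RPKM in A10-FMT and 11.5%, 2.62% and 44.5% in Con-FMT. These near-identical genes are alternative forms of the same locus in different mouse strains, and reads may be split between them by the counting.

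Genes of dividing cells showed the order of the erythroid genes within A10-FMT. All 38 tested genes of a proliferation list were higher in A10-FMT, with a median log2 fold change of 0.51 (0.68 after centring), 14 of them without overlap (22 after centring). Of all genes, 29.1% were higher and 5.29% were higher without overlap as deposited, against 50.2% and 12.1% after centring. The list mean was 5.92, 5.62 and 6.60 log2 units in A10-FMT and 5.49, 5.59 and 5.60 in Con-FMT, where A10-FMT replicate 2 hardly stood above the Con-FMT libraries. Pcna, the sliding clamp of DNA replication, was at 546, 437 and 852 RPKM against 377, 406 and 445 RPKM. Birc5 (survivin), which acts in cell division, was at 231, 191 and 311 RPKM against 179, 197 and 166 RPKM. Ube2c, which drives exit from mitosis, had a log2 fold change of 0.51. Without A10-FMT replicate 3 the median was 0.21 (0.29 after centring).

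Iron and heme genes were less uniform. Of 23, 14 were higher as deposited, with a median log2 fold change of 0.17 (0.34 after centring, 0.06 without A10-FMT replicate 3). Blvrb, a flavin and biliverdin reductase abundant in red cells, was at 674, 499 and 985 RPKM in A10-FMT and 459, 441 and 446 RPKM in Con-FMT. The ferritin chains that store iron differed little, with log2 fold changes of 0.17 for Fth1 and -0.03 for Ftl1. Hmox1, which opens the heme ring in macrophages, was at 196, 236 and 119 RPKM against 216, 246 and 268 RPKM and had the lowest fold change of the list, -0.46. The highest, 2.24, was that of Hpx (hemopexin), which is also on the liver list.

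Lymphocyte genes lay on the other side. All 30 tested genes of a T cell list were lower in A10-FMT, with a median log2 fold change of -0.87 (-0.70 after centring), and 24 did not overlap (19 after centring). Over all genes, 70.9% were lower and 24.4% were lower without overlap as deposited, against 49.8% and 12.1% after centring. None of the T cell genes passed the adjusted threshold. The list mean was 3.78, 4.24 and 2.68 log2 units in A10-FMT and 4.35, 4.52 and 4.41 in Con-FMT. A10-FMT replicate 3 carried the largest difference, and without it the median was -0.43 (-0.34 after centring).

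Single T cell genes repeated this picture. Cd3g, a chain of the T cell receptor complex, was at 42.5, 66.8 and 17.5 RPKM in A10-FMT and 71.0, 77.3 and 69.0 RPKM in Con-FMT. Cd2, an adhesion receptor, was at 55.9, 69.5 and 21.04 RPKM against 99.4, 86.9 and 84.5 RPKM. For both, every A10-FMT library was under every Con-FMT library as deposited. Lef1, a transcription factor of naive T cells, had the lowest log2 fold change of the list, -1.16, and Ubash3a the highest, -0.29.

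B cell genes differed mainly in 1 library. All 23 were lower on average, with a median log2 fold change of -0.70 (-0.53 after centring). Of the 23, 10 did not overlap (7 after centring), against 24.4% of all genes (12.1% after centring). The list mean was 6.48, 6.73 and 5.06 log2 units in A10-FMT and 6.79, 6.77 and 6.78 in Con-FMT. As deposited, A10-FMT replicate 2 therefore lay just under the Con-FMT libraries. After centring the list mean was 6.531, 6.686 and 5.305 against 6.739, 6.693 and 6.653, so that replicate 2 lay inside the Con-FMT range. Without A10-FMT replicate 3 the median log2 fold change was -0.19 (-0.10 after centring). Cd79a, a signalling chain of the B cell receptor, was at 642, 667 and 190 RPKM against 840, 822 and 761 RPKM. Cd37, a tetraspanin of B cells, was at 320, 377 and 100 RPKM against 403, 401 and 422 RPKM.

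The genes of antigen presentation by MHC class II were all lower, 10 of 10 tested, with a median log2 fold change of -0.75 (-0.58 after centring, -0.30 without A10-FMT replicate 3). Of the 10, 8 did not overlap (7 after centring), against 24.4% of all genes lower without overlap (12.1% after centring). Cd74, the invariant chain, was at 3284, 3924 and 1158 RPKM in A10-FMT and 4558, 4264 and 4345 RPKM in Con-FMT. H2-Aa, an alpha chain of the class II dimer, was at 1778, 2128 and 734 RPKM against 2306, 2250.4 and 2328 RPKM. H2-Eb1 stood out from the list and was chosen after its values were seen, at 248, 180.3 and 12.5 RPKM against 342, 312 and 328 RPKM, a log2 fold change of -1.95 with an adjusted p of 0.341 (limma).

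Genes of NK cells and cytotoxic T cells were lower in 15 of 15 tested, with a median log2 fold change of -0.63 (-0.46 after centring). Of the 15, 9 did not overlap (7 after centring), against 24.4% of all genes lower without overlap (12.1% after centring). These 15 genes depended less on A10-FMT replicate 3, without which their median was -0.40 (-0.32 after centring). Gzma (granzyme A) was at 18.4, 13.4 and 14.0 RPKM in A10-FMT and 34.98, 24.0 and 23.5 RPKM in Con-FMT, which gave a log2 fold change of -0.80. Here replicate 3 was not the lowest library of its group. Ccl5, a chemokine of activated T and NK cells, was at 96.2, 117 and 37.6 RPKM against 172, 178 and 115 RPKM.

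Genes that build and populate the white pulp were lower in 16 of 16 tested, with a median log2 fold change of -0.64 (-0.47 after centring), but 5 of the 16 did not overlap (2 after centring), a share near that of all genes, 24.4% (12.1% after centring). Without A10-FMT replicate 3 the median was -0.20 (-0.11 after centring). Ltb (lymphotoxin beta), which organizes lymphoid tissue, was at 192, 261 and 63.6 RPKM in A10-FMT and 329, 292 and 250.1 RPKM in Con-FMT. Cxcl12, a chemokine of stromal cells, was at 177, 184 and 101 RPKM against 186, 183 and 225 RPKM. Plasma cell genes differed little, with a median of -0.22 as deposited and -0.05 after centring, and with Jchain at 287, 372 and 285 RPKM against 263, 476 and 462 RPKM.

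**Figure D4:**
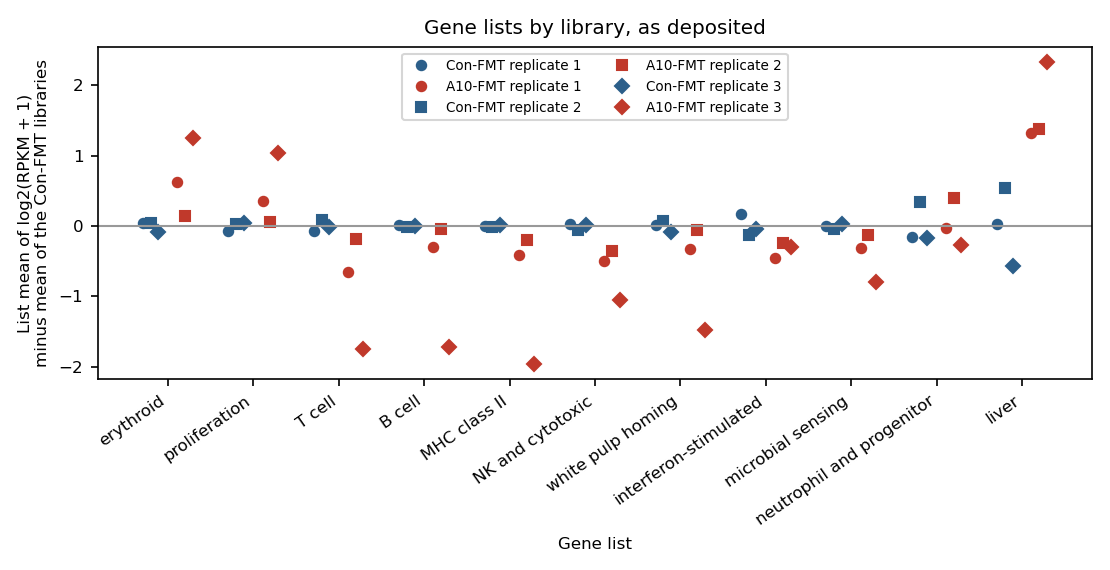
The mean log2(RPKM + 1) of the tested genes of 11 gene lists in each library, minus the mean of the 3 Con-FMT libraries, as deposited; blue is Con-FMT, red is A10-FMT and marker shapes are replicates. A10-FMT replicate 3 (red diamonds) is farthest from zero in the erythroid, proliferation, lymphocyte, microbial sensing and liver lists, and A10-FMT replicate 2 (red squares) is the closest of the A10-FMT libraries for the erythroid, proliferation and lymphocyte lists.

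The interferon-stimulated genes were set apart from the lymphocyte lists by their order of libraries. Their list mean was 4.16, 4.37 and 4.32 log2 units in A10-FMT and 4.79, 4.49 and 4.57 in Con-FMT, with A10-FMT replicate 3 between the others. After centring it was 4.21, 4.33 and 4.56 against 4.74, 4.41 and 4.45, so that replicate 3 was the highest of its group and the groups overlapped. Of 29 tested, 23 (79.3%) were lower in A10-FMT (72.4% after centring), against 70.9% of all genes (49.8% after centring). Of the 29, 16 were lower without overlap (10 after centring), against 24.4% of all genes (12.1% after centring). The median log2 fold change of the list was -0.45 (-0.28 after centring). Without replicate 3 the median was -0.39 (-0.30 after centring). Of the 2 interferon genes among the named, Ifit3, an antiviral protein, was at 7.88, 8.72 and 8.79 RPKM in A10-FMT and 20.2, 13.3 and 15.04 RPKM in Con-FMT. Ifit1bl1, a nearby gene on chromosome 19, was at 3.66, 4.33 and 3.14 RPKM against 8.58, 7.30 and 6.77 RPKM. Their log2 fold changes were -0.84 and -0.86, and the Ifit genes have close copies whose reads may be shared.

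The list did not move as a unit. Its 3 most abundant members lay the other way, with log2 fold changes of 0.78 for Isg20, an exonuclease, 0.65 for Isg15, a ubiquitin-like protein, and 0.69 for Rsad2 (viperin). Isg20 was at 285, 199 and 446 RPKM in A10-FMT and 191, 163 and 160.5 RPKM in Con-FMT, without overlap. Isg15 was at 172, 144 and 465 RPKM against 192, 130 and 120.0 RPKM, and Rsad2 at 105, 76.6 and 185 RPKM against 82.4, 76.9 and 55.5 RPKM. Both were highest in A10-FMT replicate 3 and overlapped. Irf7, a transcription factor of the interferon response, was lower by value, at 37.5, 46.5 and 45.9 RPKM against 70.5, 51.4 and 65.1 RPKM (picked from the list after its values were seen).

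Many genes of this kind carry the interferon-stimulated response element in their promoters. Its core, written here as GAAANNGAAA and searched on both strands of the 250 bases before the RefSeq start site, was held by 936 of 27025 genes (3.46%) and by 12 of the 23 tested list members with such a window (52.2%). The following windows of 100 bases from GRCm38.p6, each with matches in capitals, are shown for genes that differed in the direction of their values, and overlapping matches run together. Ifit3 is at chr19:34583345-34583444 (plus strand), Ifit1bl1 at chr19:34602018-34602117 (minus strand) and Isg15 at chr4:156200836-156200935 (minus strand).
Ifit3: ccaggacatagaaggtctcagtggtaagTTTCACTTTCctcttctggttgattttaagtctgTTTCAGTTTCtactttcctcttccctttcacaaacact
Ifit1bl1: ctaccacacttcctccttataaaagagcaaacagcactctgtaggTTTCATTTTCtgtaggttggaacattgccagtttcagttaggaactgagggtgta
Isg15: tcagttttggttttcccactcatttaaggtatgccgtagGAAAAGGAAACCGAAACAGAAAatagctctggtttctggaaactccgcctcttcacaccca
Ifit3 held 2 matches, Ifit1bl1 1 and Isg15 3, so that the core stood upstream of genes of both directions. The letters AGATAA of a GATA site were found in 30.4% of the 23 erythroid genes with a window and in 11.4% of all genes, and TTTCCCGC, an E2F site, in 6.45% of 31 proliferation genes and 1.03% of all genes. A match is a description of letters and not of a bound site.

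Genes that sense microbes were lower in 29 of 30 tested, with a median log2 fold change of -0.43 (-0.26 after centring), beside 70.9% of all genes lower as deposited. Of the 30, 12 did not overlap (10 after centring), against 24.4% of all genes (12.1% after centring). The list mean was 3.02, 3.21 and 2.54 log2 units in A10-FMT and 3.34, 3.30 and 3.37 in Con-FMT, and without A10-FMT replicate 3 the median was -0.22 (-0.14 after centring). Tlr1, a receptor for bacterial lipoproteins, was at 44.4, 53.7 and 17.5 RPKM against 53.1, 59.3 and 55.1 RPKM. Nfkbia, the inhibitor of NF-kB and itself its target, was at 72.5, 92.03 and 35.4 RPKM in A10-FMT and 107, 98.1 and 99.5 RPKM in Con-FMT, without overlap. Il1b was the only member above Con-FMT on average, with a log2 fold change of 0.12, and Tnf was the lowest at -0.71.

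Receptors for microbial metabolites were mostly too low to test, with 6 of 13 tested and a median log2 fold change of -0.30 (-0.14 after centring). Ffar2, a receptor for short-chain fatty acids on myeloid cells, was at 8.24, 8.46 and 3.47 RPKM in A10-FMT and 12.6, 9.93 and 10.7 RPKM in Con-FMT, which gave a log2 fold change of -0.72 without overlap. Cyp1b1 and Tiparp, targets of the aryl hydrocarbon receptor, overlapped, with log2 fold changes of -0.19 and -0.26. Complement genes were lower in 18 of 21, with a median of -0.45 (-0.28 after centring), and 7 were lower without overlap (6 after centring). These shares lie not far above the 70.9% of all genes lower and the 24.4% lower without overlap as deposited. After centring, 15 of the 21 (71.4%) were lower, against 49.8% of all genes. The 6 lower without overlap after centring stand beside 12.1% of all genes. In each version 1 complement gene was higher without overlap, against 5.29% of all genes (12.1% after centring). C3, the hub of the cascade, was at 182, 253 and 107 RPKM against 287, 285 and 216 RPKM, and overlapped.

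Myeloid lists differed among themselves. Monocyte and dendritic cell genes were lower in 16 of 18, with a median log2 fold change of -0.48 (-0.31 after centring, -0.25 without A10-FMT replicate 3). Of these monocyte and dendritic cell genes, 8 were lower without overlap (6 after centring), against 24.4% of all genes (12.1% after centring). Sirpa, a receptor on these cells, was at 41.1, 47.3 and 30.3 RPKM in A10-FMT and 59.5, 51.8 and 63.0 RPKM in Con-FMT, and Irf8, which directs their development, had a log2 fold change of -0.65. Ly6c2, which marks inflammatory monocytes, ranged from 12.1 to 74.0 RPKM within Con-FMT alone. Red pulp and tissue macrophage genes were lower in 21 of 22 as deposited, but the median was -0.26 against -0.17 for all genes, and -0.10 after centring. C1qa, which with other chains forms C1q, overlapped at 104, 113 and 104 RPKM against 118, 105 and 138 RPKM.

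Neutrophil genes lay near the Con-FMT level, 14 of 23 higher with a median log2 fold change of 0.07 (0.24 after centring). As deposited, single libraries turned the sign of this median, which was -0.10 without A10-FMT replicate 2 and -0.05 without Con-FMT replicate 1. It was 0.30 without Con-FMT replicate 2. After centring it was 0.25, 0.14 and 0.35 without A10-FMT replicates 1, 2 and 3. After centring 17 of the 23 (73.9%) were higher, against 50.2% of all genes. S100a9, an abundant calcium-binding protein of neutrophils, was at 330.2, 544 and 270.0 RPKM in A10-FMT and 245, 409 and 259 RPKM in Con-FMT. Replicate 2 was the highest of its group for this gene on both sides. Platelet and megakaryocyte genes had a median of -0.14, close to all genes, and 0.03 after centring, with Pf4 (platelet factor 4) at 281, 290 and 231 RPKM against 286, 368 and 237 RPKM. Matrix and smooth muscle genes were lower in 20 of 21, with a median of -0.49 (-0.32 after centring), and 1 did not overlap, against 24.4% of all genes lower without overlap as deposited. Their median was -0.33 without A10-FMT replicate 3, -0.78 without A10-FMT replicate 2 and -0.75 without Con-FMT replicate 3. Bgn (biglycan) was at 173, 204 and 102 RPKM against 264, 252 and 216 RPKM. Endothelial genes had a median of -0.20 and -0.04 after centring.

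**Figure D5:**
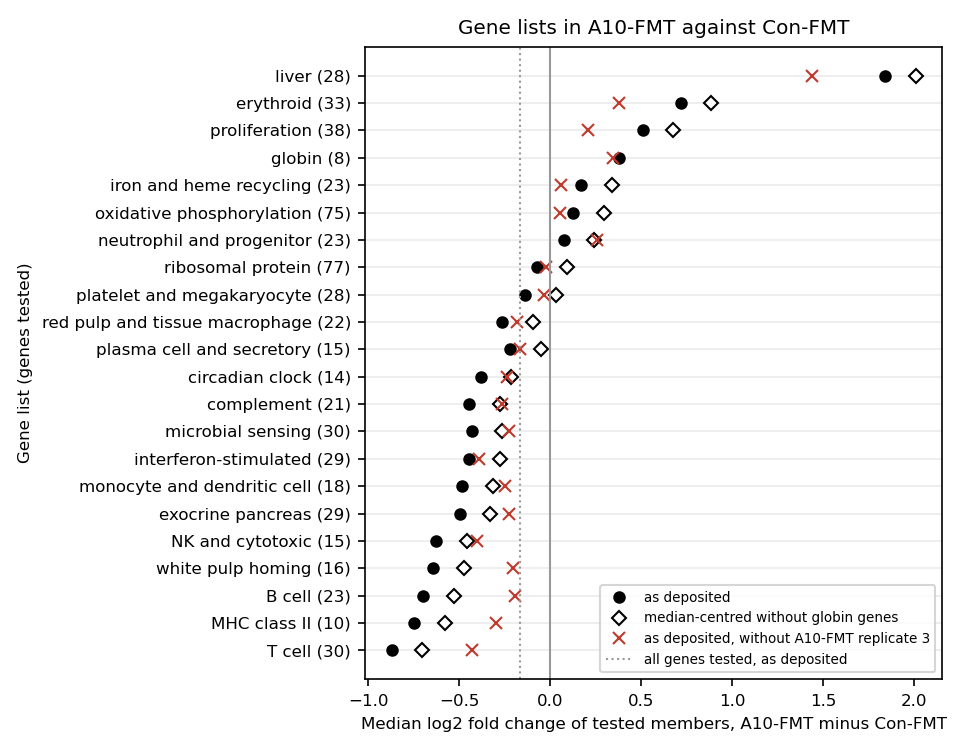
The median log2 fold change of the tested members of 22 gene lists, A10-FMT minus Con-FMT, as deposited (filled circles), after centring without globin genes (open diamonds) and as deposited without A10-FMT replicate 3 (red crosses). The dotted line is the median of all genes tested, -0.17. The liver, erythroid and proliferation lists lie above zero in all 3 versions, and the lymphocyte and MHC class II lists below it. Their medians are smaller once replicate 3 is left out. Most liver genes passed the filter only through the group where they are high. The 6 liver genes that reached an RPKM of 1 in all 6 libraries had a median of 0.19.

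The study stained or blotted 7 proteins in spleens of this experiment, and whether these were the sequenced spleens is not stated. The transcripts of 6, measured as RNA and not as protein, were fixed to be given whatever their values. The other, Bcl-xl, is given below with its family. Mki67 (Ki67), a mark of dividing cells, was at 203, 147 and 341 RPKM in A10-FMT and 124, 137 and 147 RPKM in Con-FMT, and the log2 fold change was 0.68 (adjusted p = 0.341, limma) and 0.35 without A10-FMT replicate 3. The groups lay apart by less than 1 RPKM at their nearest. Ccl21a, the T zone chemokine, was at 788, 1051 and 317 RPKM against 939, 1161 and 967 RPKM, and its receptor Ccr7 at 32.8, 49.2 and 13.2 RPKM against 43.5, 44.3 and 46.5 RPKM. Both overlapped, with log2 fold changes of -0.67 and -0.66 that became -0.16 and -0.15 without A10-FMT replicate 3, and reads of Ccl21a may be shared with its near-identical copies. A10-FMT replicate 2 was inside the Con-FMT range for Ccl21a and above it for Ccr7.

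Cd163, the scavenger receptor for hemoglobin and haptoglobin on macrophages, was low in all, at 1.66, 1.57 and 1.98 RPKM in A10-FMT and 1.34, 1.59 and 1.27 RPKM in Con-FMT. The log2 fold change was 0.19 (adjusted p = 0.38), and after centring the libraries no longer overlapped. Trp53 (p53), the DNA damage regulator, was at 88.8, 83.2 and 91.4 RPKM against 104, 94.97 and 92.8 RPKM, a log2 fold change of -0.14 that became 0.02 with overlap after centring. Bax, which permeabilizes mitochondria in apoptosis, was at 79.1, 82.1 and 64.3 RPKM against 88.6, 80.3 and 76.9 RPKM and overlapped in both versions. The 24 tested genes of the p53 and BCL2 families had a median log2 fold change of -0.14 (0.03 after centring), with Fas, a death receptor, lowest at -0.77 and Gadd45a, a stress gene, highest at 0.68. Bcl2l1 (Bcl-xl), which protects cells from apoptosis, was at 87.6, 69.7 and 84.3 RPKM against 61.6, 68.2 and 44.3 RPKM, without overlap, and the log2 fold change was 0.48 (adjusted p = 0.341, limma).

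The circadian clock list was lower in 13 of 14 tested, with a median log2 fold change of -0.38 (-0.21 after centring, -0.24 without A10-FMT replicate 3), and 8 did not overlap (4 after centring). Of all genes, 70.9% were lower and 24.4% were lower without overlap as deposited, against 49.8% and 12.1% after centring. Dbp, an output gene of the clock whose level swings over the day, was at 6.44, 9.34 and 1.76 RPKM in A10-FMT and 16.2, 16.8 and 17.2 RPKM in Con-FMT, and the log2 fold change was -1.57 (adjusted p = 0.341, limma). Tef, of the same PAR bZIP family, was at 10.03, 12.01 and 4.6 RPKM against 13.2, 14.9 and 16.5 RPKM. The clock's own feedback gene Per2 overlapped, with a log2 fold change of 0.07.

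Among genes that answer to stress, the metallothioneins Mt1 and Mt2, which bind zinc and copper, did not overlap between the groups. Mt2 was at 151, 123 and 367 RPKM in A10-FMT and 79.4, 78.6 and 102 RPKM in Con-FMT, which gave a log2 fold change of 1.13 (0.66 without A10-FMT replicate 3), and Mt1 was at 160.0, 156 and 269 RPKM against 113, 103 and 128 RPKM, a log2 fold change of 0.72. Other genes of the glucocorticoid-induced list went the opposite way, such as Tsc22d3 (GILZ) at -0.58 and Ddit4 at -0.80, and the median of its 11 genes was -0.17 (0.0012 after centring). The 20 immediate early and heat shock genes had a median of 0.19 (0.36 after centring), and none was without overlap as deposited. After centring 2 of the 20 were higher without overlap, beside 12.1% of all genes. The median of this list rested on single libraries too. It was -0.23 without A10-FMT replicate 2 (0.01 after centring) and 0.02 without Con-FMT replicate 1. Fos was at 3.11, 36.7 and 2.41 RPKM against 2.33, 2.27 and 2.45 RPKM, so that its log2 fold change of 1.27 rested on A10-FMT replicate 2.

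Median differences of energy metabolism genes were small. Oxidative phosphorylation genes were higher in 59 of 75, with a median log2 fold change of 0.13 (0.30 after centring, 0.05 without A10-FMT replicate 3). That is 78.7% higher (94.7% after centring), against 29.1% of all genes (50.2% after centring). Of the 75, 9 were higher without overlap (22 after centring) and 1 lower (0 after centring). Of all genes, 5.29% were higher without overlap (12.1% after centring). Atp5b, a subunit of ATP synthase, was at 510.2, 449 and 777 RPKM in A10-FMT and 427, 433 and 473 RPKM in Con-FMT. Ribosomal protein genes turned from a median of -0.08 as deposited to 0.09 after centring, and 77 were tested. Glucose and insulin signalling genes had a median of -0.19 (-0.02 after centring), with Gapdh at 820, 890 and 947 RPKM against 809, 856 and 924 RPKM. The 24 genes of fatty acid and eicosanoid metabolism had a median of -0.03 (0.14 after centring). Fabp5, a fatty acid carrier, was at 51.9, 40.4 and 175 RPKM against 36.2, 32.8 and 39.3 RPKM, without overlap but with only replicate 3 far from the Con-FMT libraries.

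Genes of the exocrine pancreas, whose tail lies against the spleen, showed the widest spread between libraries of 1 group. Their summed RPKM was 247, 30690 and 1615 in A10-FMT and 4248, 2550 and 4345 in Con-FMT. Ctrb1 (chymotrypsinogen B) was at 38.1, 5389.96 and 266 RPKM in A10-FMT and 957, 580 and 771 RPKM in Con-FMT. A10-FMT replicate 2 was therefore the highest of the 6 libraries and replicate 1 the lowest. The median log2 fold change of the 29 tested genes was -0.50, and it was 0.99 without A10-FMT replicate 1, -2.28 without replicate 2 and -0.23 without replicate 3. Ins2 (insulin), the only tested endocrine gene, was at 0.21, 19.97 and 1.58 RPKM against 2.26, 1.72 and 0.22 RPKM, in step with the exocrine genes within A10-FMT. The part of this pancreas RNA in the results was not tested.

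Markers of other tissues were mostly low. The 12 tested adipose genes had a median log2 fold change of -0.01, which was 0.54 without Con-FMT replicate 1 and -0.46 without Con-FMT replicate 3, with a summed RPKM of the list that ranged over 94.3 to 186 (A10-FMT) and 73.9 to 238 (Con-FMT). The 12 kidney genes summed to 1.66 RPKM at most and none could be tested. Of the testis germ cell list 1 gene was tested, Hspa1l, at -0.22, and of the skeletal muscle list Eno3 and Mylpf were, at -0.39 and 0.67. The 4 tested gut epithelium genes had a median of -0.31, and Apoa4, which liver also makes, had a log2 fold change of 0.72. The Y-linked genes were expressed in all 6 libraries, summing to 104 to 125 RPKM (A10-FMT) and 115 to 137 RPKM (Con-FMT) in these males.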

How the data were processed

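Spleen poly(A) RNA was sequenced by the authors on an Illumina HiSeq, and reads were aligned to reference genes with SOAPaligner according to the methods. The submitters' processing notes name Bowtie 0.12.2 and mm10, and which made these values could not be settled. The authors deposited RPKM (reads per kilobase, scaled to mapped reads) for 18 columns, each tied to a sample by its title, with 0 columns left over. RPKM holds no depth and no counting interval was computed. Each library was labelled as a separate sample, and p-values measure the spread between these samples. Of 19326 lines, 6 with 3 repeated names were left out, and 26 names had been turned into dates.

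In R 4.3.3, the A10-FMT and Con-FMT libraries were fitted on log2(RPKM + 1) by limma 3.58.1 with a mean-variance trend and no covariate. Genes needed an RPKM of at least 1 in 3 of the 6 libraries. P-values are two-sided and Benjamini-Hochberg adjusted over all genes (threshold 0.05). Single values were compared with exact permutation tests. The script was tested on simulated data with known changes first.

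Named genes are the 10 in each direction with the largest change among called genes. Open places were filled by smallest p among genes without overlap and with a mean of at least 5 RPKM in the higher group. The same rule after centring took 5 in each direction, of which only Olfm1 was not already named. The 6 study proteins and the 3 most abundant members of each of 38 lists were named too. Some genes are not reported here. Members named as the lowest or highest of a list, and the neighbours of Gdpd3, were chosen after their values were seen, as were Gata1, Epor, Per2, Fos and Bcl2l1. The comparison, the members and the lists were chosen with earlier results of these data known. Positions come from GENCODE M21 (GRCm38) by symbol, which 12128 of 12314 tested genes matched, and may differ from the authors' build. Gm29779 and Gm40378 had none. Upstream sequences come from RefSeq (GRCm38.p6). Alternatives were quantile normalization, rescaling without globin genes, a fit of all 18 libraries, a pseudocount of 0.1, no filter, RPKM of at least 1 in all 6 libraries, no trend, array weights, a replicate block, the study's thresholds (FDR 0.001, log2 ratio 1) and leaving out each library. Figures were drawn from the same values.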

Additional observations from a re-analysis of the deposited data

How the results depend on the processing

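The call of Gdpd3, the only called gene, was kept in both versions under a pseudocount of 0.1, no filter, no trend and the study's thresholds, and as deposited under quantile normalization and rescaling without globin genes. It was lost in the fit of all 18 libraries, where 0 genes were called by limma in either version (2963 and 2368 at an unadjusted p under 0.05). A filter of RPKM of at least 1 in all 6 libraries also gave 0 calls (1223 and 890 at an unadjusted p under 0.05), because it removes Gdpd3, which is under 1 in A10-FMT. Array weights gave 7991 calls as deposited and 6676 after centring, but the estimate stopped before convergence and gave nearly all weight in A10-FMT to replicate 1. Gene-by-gene weights, chosen after seeing the data, gave 5047 and 2518 calls and also weighted that replicate most (6.07, against 0.479 and 0.0958 for replicates 2 and 3). Under array weights the log2 fold change of Amy2a5 turned to -2.76 and the log2 fold change of Ins2 to -1.05. These weights let 1 animal stand for the group.

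Leaving out each replicate in turn gave 1 to 3 calls as deposited and 1 to 2 after centring, with Gdpd3 among them each time. Without A10-FMT replicate 2 the others were H2-Q6, which has close copies, and Slc9a5, and without A10-FMT replicate 3 Slc15a2. The genes at an unadjusted p under 0.05 went from 1308 to 4745 without A10-FMT replicate 2 as deposited, and from 948 to 3755 after centring. They fell to 560 without A10-FMT replicate 1 and to 391, 371 and 417 without Con-FMT replicates 1, 2 and 3 (486, 316, 328 and 411 after centring), and were 1540 without A10-FMT replicate 3 (1182 after centring).

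The replicate numbers showed no clear pairing of animals, though so few libraries per group cannot exclude one. Deviations of libraries with the same number correlated at -0.09, -0.02 and 0.10, and not every library correlated best with its own number. With the replicate block 1 gene, Gdpd3, was called in each version (adjusted p 0.0119 and 0.0101). Over the alternatives for single named genes, 1879 values were on the same side, 170 came past the threshold, 75 moved, 2 turned and 1 lost its call. Those that came past the threshold did so under the array weights, which let 1 animal stand for the group. Depth is unknown, and values under 1 RPKM are the least certain.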
